A study of Homo sapiens with 35 samples.

Results

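RNA of RPMI-8226 cells on day 4 after a pulse of carfilzomib was compared with RNA of the same line on day 0, before the drug. RPMI-8226 is an established human myeloma line, and myeloma is a cancer of plasma cells, the antibody-secreting end stage of the B lineage. Carfilzomib binds irreversibly to the chymotrypsin-like site of the proteasome, the protease that degrades ubiquitin-tagged proteins. Its inhibition lets unfolded protein build up, which is known to call on chaperones, on the unfolded protein response of the endoplasmic reticulum (ER) and on the integrated stress response, in which phosphorylation of eIF2α raises translation of the transcription factor ATF4. Cells that survive have to rebuild their protein turnover and return to growth, and the question here is which transcripts still differed on day 4 of that recovery.

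The 10 libraries were all those labelled day 0 (5) and day 4 (5) out of 35, and the comparison took in every protein-coding entry of the count table (19665). Day 4 cells had received 750 nM carfilzomib for 1 h and were then washed and kept in fresh medium that was replaced on day 2. The labels list the carfilzomib treatment for day 0 as well, whereas the methods place day 0 before the drug, and day 0 was taken as untreated. The methods describe all cultures as split from a single expanded culture shortly before the pulse, and describe the same data elsewhere as independent experiments, so the spread between the 5 libraries of a day may not cover separate experiments. No untreated culture of day 4 was among the 35 libraries. Day 0 cells were set to a fixed density in fresh medium on the day of sampling, whereas day 4 cells were sampled just before a medium change. For the later of these days the paper describes apoptosis at its highest and viable cells still below the starting level. The drug, the recovery, the days in culture, the age of the medium, handling, cell density and dying cells can therefore not be told apart. The part of each in the results below was not tested.

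Depth was similar in both groups, with 6641766 to 9400769 counts per library on day 0 and 6791179 to 8231162 on day 4. Values are CPM, a library's protein-coding counts brought to a common total, after TMM scaling, which sets the typical transcript level in all libraries to be equal. The scaling factors did not overlap between days (0.929 to 0.961 on day 0, 1.01 to 1.04 on day 4). Protein-coding entries held 78.1% to 80.9% of all counts on day 0 and 81.4% to 83.3% on day 4, and transcripts of the mitochondrial genome held 7.97% to 11.9% and 5.91% to 7.25% of the protein-coding counts. The part of these shifts in the results below was not tested. Markers of plasma cells were expressed, with IRF4, XBP1, SDC1 and CD38 at means of 462, 441, 305 and 190.3 CPM on day 0. Of 31 markers of other blood, vessel, stromal and epithelial cells, 26 were tested. CD3D, HBB, VWF and KRT14 had no count in the 10 libraries, and the summed level of the list was 469 to 553 CPM on day 0 and 577 to 639.6 CPM on day 4, of which KRT18, CD68, EPCAM and KRT8 made up most.

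Of 17999 protein-coding transcripts with a count in any library, 1694 (9.41%) were deregulated on day 4, at a Benjamini–Hochberg adjusted p of edgeR (Q) of at most 0.05 and a fold change above 2. The 742 higher transcripts made up 4.12% of those tested and the 952 lower ones 5.29%. Of the 1694, 1291 did not overlap between the 5 libraries of each day. At Q ≤ 0.05 without the fold cutoff, 3421 (19.0%) were higher and 3622 (20.1%) lower. These shares over all transcripts stand beside the counts of list members below, but they include many transcripts at low levels. Of the 17999, 11449 had a mean log2 CPM above 1, whereas in most lists nearly all members did. The shares among such transcripts alone were not computed, so counts of members not far above 19.0% or 20.1% are not a result about a list. The median log2 fold change of all transcripts was -0.02. With the filterByExpr filter on low counts 661 were higher and 649 lower, and 530 and 540 of the deregulated transcripts had a mean log2 CPM above 1. Without scaling factors, 908 were higher and 770 lower, and the median of expressed transcripts moved to 0.11 from -0.004, so that small differences of whole gene families are given below with their count under that setting where it turned the balance. RNA came from bulk cultures, so a smaller share of cells that express a gene and less of its RNA per cell cannot be told apart.

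**Figure D1:**
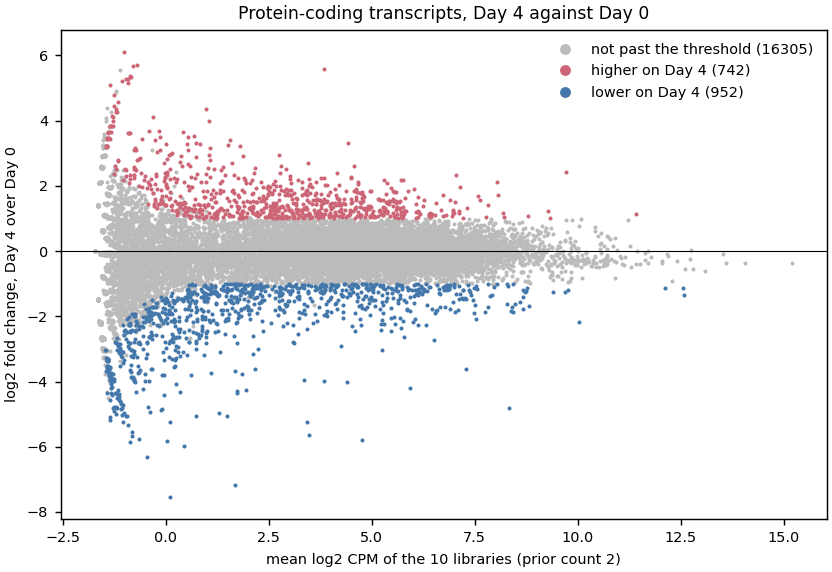
Log2 fold change of day 4 over day 0 (vertical axis) against the mean log2 CPM of the 10 libraries (horizontal axis, prior count 2) for each of the 17999 protein-coding transcripts tested. The 742 transcripts higher and the 952 lower on day 4 are coloured, and those past the threshold spread further from 0 at low levels than at high ones.

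Among transcripts above a mean log2 CPM of 1 whose libraries did not overlap, the largest rise was that of CLU (chromosome 8, 27596917 to 27614700, GRCh38, GENCODE release 44), which encodes clusterin, a secreted chaperone that holds misfolded proteins in solution. It stood at 2.25, 2.06, 1.43, 0.601 and 3.85 CPM in the 5 day 0 libraries and at 109, 90, 103, 98.9 and 95.8 CPM on day 4. Every day 4 library lay more than 20-fold above every day 0 library (log2 fold change 5.58, standard error 0.17, edgeR Q = 2.71e-27). CYP1A1 (chromosome 15, 74719542 to 74725536), a cytochrome P450 known as a target of the aryl hydrocarbon receptor, was at 7.88, 6.67, 4.83, 7.01 and 6.74 CPM on day 0 and 70.6, 68.6, 66.8, 62.9 and 64.1 CPM on day 4 (log2 fold change 3.32, standard error 0.46, edgeR Q = 1.22e-07). The groups were tight and far apart. CCNG2, an unconventional cyclin whose expression is associated with cell cycle exit, went from 2.26 ± 0.567 to 17.6 ± 1.9 CPM (SD, n = 5; log2 fold change 2.95, standard error 0.18, edgeR Q = 1.51e-17).

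The other 7 of the 10 largest rises started at 0.411 to 1.22 CPM. They were PCP4, which encodes a calmodulin-binding peptide, the myosin gene MYO7A, the sialyltransferase gene ST6GALNAC1, SLC2A2, which encodes the glucose transporter GLUT2, ANGPTL4, a secreted inhibitor of lipoprotein lipase, the DNA glycosylase gene NEIL3, and C2CD4A. Their log2 fold changes ran from 2.93 (C2CD4A) to 4.00 (PCP4). SLC2A2 rose from 1.0 ± 0.314 to 9.45 ± 1.72 CPM and MYO7A from 0.768 ± 0.555 to 8.78 ± 0.757 CPM. ANGPTL4 and ST6GALNAC1 were spread widely on day 0, with ANGPTL4 at 0.563, 0.317, 2.14, 0 and 0.193 CPM in the 5 libraries and ST6GALNAC1 at 0.422, 0.159, 1.61, 0 and 2.7 CPM.

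The largest fall by fitted fold change among the same transcripts was that of PHLDA3 (chromosome 1, 201464278 to 201469237), a pleckstrin-homology protein that restrains AKT and a target of p53. It was at 26, 25.1, 26.1, 25.9 and 24.6 CPM on day 0. On day 4 it had 5 counts in the 5 libraries together, all in a single library, against 746 on day 0 (log2 fold change -7.17, standard error 0.47, edgeR Q = 2.90e-16). MDM2 (chromosome 12, 68808177 to 68845544), the ubiquitin ligase that turns p53 over, was at 1818, 1633, 1936, 1642 and 1576 CPM in untreated cells and at 56.1, 71.4, 58.2, 63.2 and 57.8 CPM on day 4. Its fall was 28-fold (log2 fold change -4.81, standard error 0.08, edgeR Q = 6.47e-37). RRAD, a small GTPase of muscle and a p53 target, fell from 197 ± 5.48 to 3.53 ± 0.889 CPM (log2 fold change -5.79, standard error 0.16, edgeR Q = 5.76e-29). The AP-1 subunit gene FOSB fell from 73.5 ± 5.86 to 1.44 ± 0.439 CPM (log2 fold change -5.64, standard error 0.21, edgeR Q = 3.83e-24), and CCL3, which encodes the chemokine MIP-1α, from 63 ± 14.6 to 1.64 ± 0.779 CPM (log2 fold change -5.23, standard error 0.27, edgeR Q = 2.10e-19).

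The interferon-induced gene XAF1, the phosphodiesterase gene PDE2A, the mucin gene MUC21 and the chloride channel gene BEST1 had means between 11.4 and 15.3 CPM on day 0 and below 1 CPM on day 4, with log2 fold changes of -4.98, -4.37, -4.30 and -4.24. DUX4 was also among the 10 largest falls (-5.07), but it lies in a repeat with near-identical copies between which reads cannot be assigned with certainty. XAF1, DUX4 and PHLDA3 were at 0 in several day 4 libraries, so their fitted fold changes depend on very few counts.

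**Figure D2:**
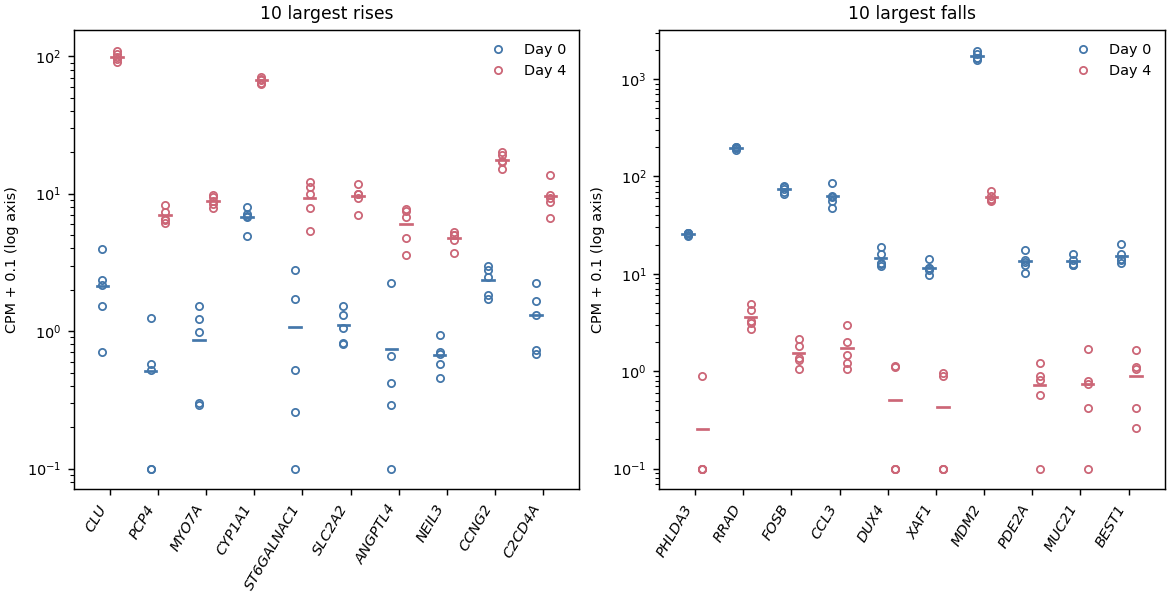
CPM plus 0.1 on a log axis in each of the 5 day 0 and 5 day 4 libraries (open circles, bars at the mean) for the 10 largest rises and the 10 largest falls among deregulated transcripts with a mean log2 CPM above 1 and no overlap between days. MDM2 moved from about 1721 to 61.3 CPM and CLU from 2.04 to 99.3 CPM, and the lowest circles mark libraries without a count.

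Mitotic genes rose as a block. Of 54 genes of mitotic kinases, cyclins, kinesins and kinetochores, 53 were higher at Q ≤ 0.05 and none lower, against 19.0% and 20.1% of all transcripts, and 51 of them also passed the fold cutoff. The median log2 fold change of the list was 1.56, and 53 members had all day 4 libraries above all day 0 libraries, as did 13.5% of all transcripts. PLK1, the kinase that drives entry into and passage through mitosis, was at 21.8, 17.3, 19.5, 12.8 and 20.4 CPM on day 0 and 97.8, 82.9, 78, 87.6 and 77 CPM on day 4. The groups were more than 3-fold apart at their nearest libraries (log2 fold change 2.19, standard error 0.11, edgeR Q = 5.63e-20). CCNB1, the B cyclin that activates CDK1, rose from 24.2 ± 1.28 to 86.6 ± 2.45 CPM (log2 fold change 1.84, standard error 0.08, edgeR Q = 8.49e-22). MKI67, the proliferation marker Ki-67, rose from 40.6 ± 5.82 to 112 ± 3.45 CPM and TOP2A, the topoisomerase that untangles chromosomes, from 114 ± 4.37 to 338 ± 18.9 CPM (log2 fold changes 1.45 and 1.57). The kinesin gene KIF20A had the largest rise of the list (2.71, from 4.11 ± 1.24 to 27.5 ± 3.65 CPM), followed by the kinase gene AURKA (2.24) and the cyclin gene CCNA2 (2.23). The single member that did not pass, UBE2C (chosen after its values were seen), was below 1 CPM on both days in the protein-coding entry.

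Many promoters of mitotic genes carry a CHR element, the cell cycle genes homology region bound by the DREAM and MMB complexes. In the 300 bases around each gene's start (250 before, 50 after; RefSeq, GRCh38.p14), TTTGAA or TTCGAA on either strand was found in 35 of the 48 list members that had a window (72.9%) and in 4539 of all 27305 windows (16.6%). The following stretches lie upstream of the start, with the match in capitals. They are shown because the members printed are the ones described above.
PLK1: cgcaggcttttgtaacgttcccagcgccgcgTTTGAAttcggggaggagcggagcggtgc
MKI67: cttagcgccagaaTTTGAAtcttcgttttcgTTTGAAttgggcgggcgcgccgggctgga
TOP2A: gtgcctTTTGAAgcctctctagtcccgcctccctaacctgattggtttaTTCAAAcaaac
The stretch of PLK1 (chr16:23678829-23678888, plus strand) and that of MKI67 (chr10:128126424-128126483, minus strand) cover 60 to 1 bases before the start, and that of TOP2A (chr17:40418037-40418096, minus strand) covers 200 to 141. PLK1 has a single match, whereas MKI67 and TOP2A have a pair each within these bases. A match is a description of the letters, and since nearly all members rose, those with and without one did not differ in direction.

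DNA replication genes were also higher, by less. Of 41 members, 36 were higher and 1 lower at Q ≤ 0.05, with a median log2 fold change of 0.87. RRM2, the regulatory subunit of ribonucleotide reductase, which makes deoxynucleotides, was at 23.1, 23.2, 27.3, 26.1 and 26 CPM on day 0 and 111, 115, 117, 111 and 114 CPM on day 4. It was more than 4-fold higher in each (log2 fold change 2.18, standard error 0.08, edgeR Q = 1.42e-24). ORC6, a subunit of the origin recognition complex, and MCM10, which loads polymerase at origins, rose by 2.56 and 1.99 on the log2 scale. CDC6, the licensing factor, rose from 36.9 ± 3.5 to 65.8 ± 2.36 CPM (0.84) and the helicase subunit gene MCM2 from 76.5 ± 6.01 to 122 ± 9.68 CPM (0.67). PCNA, the sliding clamp of the replication fork, was the one member that fell. It stood at 157, 166, 161, 187 and 172 CPM on day 0 and 96.7, 98.1, 92.2, 115 and 90.1 CPM on day 4 (log2 fold change -0.78, standard error 0.07, edgeR Q = 1.75e-12). PCNA is also a known target of p53, whose other targets are described below.

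Replication promoters are known for sites of E2F factors. TTTGGCGC, TTTCGCGC, TTTCCCGC or TTTGCCGC on either strand was found in 20 of the 36 members with a window (55.6%) and in 908 of all 27305 windows (3.33%). Of the 20, 18 were higher, 1 was lower and 1 did not pass. The 3 stretches below show a member that rose, one that did not pass and the one that fell. CDT1 and MCM6 were chosen after their values were seen.
CDT1: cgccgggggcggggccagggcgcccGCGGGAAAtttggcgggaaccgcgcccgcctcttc
MCM6: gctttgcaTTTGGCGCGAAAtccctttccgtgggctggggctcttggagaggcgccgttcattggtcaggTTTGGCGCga
PCNA: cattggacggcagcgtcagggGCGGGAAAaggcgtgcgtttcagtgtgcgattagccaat
CDT1, a licensing factor (chr16:88803729-88803788, plus strand, 60 to 1 bases before the start), had a log2 fold change of 1.57. MCM6, a subunit of the same helicase as MCM2 (chr2:135876524-135876603, minus strand, 160 to 81 bases before the start), had -0.10 (edgeR Q = 0.154), with overlapping matches on both strands. PCNA had its match within chr20:5126643-5126702 (minus strand, 80 to 21 bases before the start). The same motif set stood before genes that rose, fell and did not pass the test.

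Regulators of the G1/S transition were mixed, with 14 of 23 higher and 6 lower. E2F8 rose by 2.38, CDC25A, the phosphatase that activates CDK2, by 1.39, and E2F1 by 0.77 on the log2 scale, whereas E2F7 fell by 1.05. The inhibitors of cyclin-dependent kinases went in opposite directions. CDKN1A, which encodes p21, was at 672, 505, 588, 493 and 471 CPM on day 0 and 41.1, 45.1, 46.7, 45.8 and 44.2 CPM on day 4 (log2 fold change -3.61, standard error 0.10, edgeR Q = 7.60e-29). CDKN1B (p27) rose from 48.1 ± 3.42 to 99.2 ± 8.96 CPM (log2 fold change 1.05, standard error 0.07, edgeR Q = 1.72e-16) and CDKN1C (p57) from 19.9 ± 3.9 to 85.8 ± 5.24 CPM (log2 fold change 2.10, standard error 0.14, edgeR Q = 7.21e-16). The 3 kinase inhibitors did not overlap between days. CCND2, a D cyclin that activates CDK4 and CDK6, fell from 1323 ± 27.6 to 579 ± 21.2 CPM (log2 fold change -1.19, standard error 0.05, edgeR Q = 2.35e-23), and CCNE2 did not pass (0.29, edgeR Q = 0.231).

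Of 44 replication-dependent histone genes tested, 5 were higher and 10 lower, with a median of 0.06, and 19 had a mean log2 CPM above 1. HIST1H4H, HIST1H2AC and HIST1H4I fell by 1.63, 1.21 and 1.09 on the log2 scale, and HIST1H2BH and HIST1H3G rose by 1.79 and 1.97 from means of 1.13 and 0.631 CPM. HIST1H4D went from 2 to 15 counts over the 5 libraries of each day, a ratio of 6.91 with a 95% exact counting interval of 1.61 to 62.3, and missed the threshold without Day 4 replicate 1 (2.25, edgeR Q = 0.051). Many of these genes are near-identical in sequence, and their counts are uncertain for that reason.

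Proteasome genes differed from day 0 by less than 2-fold. Of 21 subunits of the 19S regulator, 6 were higher and 3 lower, and of 17 genes of the 20S core, 8 were higher and none lower, with no member past 2-fold. Medians were 0.09 and 0.16. The 3 lower members of the 19S list, PSMC2, PSMD7 and PSMD8 (-0.17, -0.22 and -0.16), did not pass without scaling factors, under which 12 members were higher and none lower. With each library left out in turn, 1 to 4 members were lower. PSMC2 missed the threshold without Day 4 replicate 2 (-0.13, edgeR Q = 0.0616) or Day 0 replicate 5 (-0.12, edgeR Q = 0.0927). PSMD8 missed it in several of these runs and with the 10 libraries alone (-0.15, edgeR Q = 0.115). PSMB5, which carries the site that carfilzomib binds, was at 56.7, 56.2, 44.5, 55.7 and 53.9 CPM on day 0 and 64.1, 60.7, 61.3, 60.8 and 52.7 CPM on day 4 (log2 fold change 0.17, standard error 0.07, edgeR Q = 0.0557). The groups overlapped, and the threshold was missed here. It was passed with RLE scaling factors (0.17, edgeR Q = 0.0496) and without scaling factors (0.28, edgeR Q = 0.000333). It was also passed with the filterByExpr filter (0.17, edgeR Q = 0.0287), the replicate block (0.17, edgeR Q = 0.0389) and DESeq2 (0.17, DESeq2 Q = 0.0417). The same held with all transcript classes of the gene summed (0.20, edgeR Q = 0.0243), and when any of 6 of the 10 libraries was left out (0.18 to 0.23). PSMD1, the largest 19S subunit, rose from 53.8 ± 6.04 to 86.3 ± 5.34 CPM (log2 fold change 0.68, standard error 0.08, edgeR Q = 5.33e-10), PSMD4, a ubiquitin receptor, by 0.43 and PSMD2 by 0.41 on the log2 scale. Among core genes, the immunoproteasome subunits PSMB8 and PSMB9 rose by 0.52 and 0.37 and the constitutive subunit PSMB6 by 0.35.

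Cytosolic chaperones were higher in 13 of 24 and lower in 3 (median 0.25). CHORDC1, a co-chaperone of HSP90, was the only member past 2-fold, at 18.4, 17, 18.4, 18 and 21.6 CPM on day 0 and 44.1, 44, 42.4, 40.2 and 49.2 CPM on day 4 (log2 fold change 1.24, standard error 0.10, edgeR Q = 3.72e-13). Its groups were more than 1.5-fold apart at their nearest libraries. The small heat shock gene HSPB1 rose by 0.73, HSPA4L by 0.71 and BAG3, an adaptor of HSP70, by 0.55 on the log2 scale. DNAJB1, the HSP40 that partners HSP70, fell from 104 ± 5.43 to 61.6 ± 5.64 CPM (log2 fold change -0.75, standard error 0.07, edgeR Q = 1.79e-12). HSPA1B fell by 0.54 and HSPA1A was at 0.01 (edgeR Q = 1.0), but the coding sequences of this pair are near-identical and reads between them cannot be assigned with certainty. A heat shock element, searched on either strand as the triplets GAA, TTC and GAA with any 2 bases between neighbours, was in 4 of 20 members with a window (20.0%) and in 133 of 27305 windows (0.487%). The stretch of CHORDC1, the member with the largest rise (chr11:90223080-90223129, minus strand, 80 to 31 bases before the start), holds overlapping matches.
CHORDC1: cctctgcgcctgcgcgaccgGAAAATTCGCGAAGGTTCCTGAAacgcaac
Of the 4 members with a match, 2 were higher and none lower.

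ER folding and ER-associated degradation genes were lower. Of 35, 24 were lower and 3 higher, with a median of -0.35. HSPA5, the ER chaperone BiP, was at 2424, 2519.9, 2336, 2692 and 2730.3 CPM on day 0 and 1433, 1323, 1559.5, 1427 and 1444 CPM on day 4 (log2 fold change -0.82, standard error 0.05, edgeR Q = 8.00e-18). No day 4 library reached the lowest day 0 library. SEL1L, the scaffold of the HRD1 ubiquitin ligase that removes misfolded proteins from the ER, fell from 551 ± 20.5 to 178 ± 18.7 CPM (log2 fold change -1.63, standard error 0.06, edgeR Q = 1.87e-24). The oxidase gene ERO1B fell by 1.42, DNAJB9, a BiP co-chaperone, by 1.17 and HERPUD1, which organizes the ligase, by 0.65 on the log2 scale. XBP1, the transcription factor of the IRE1 branch, did not pass (-0.09, edgeR Q = 0.188). The 3 higher members were ERO1A, DERL3 and EDEM3, at 0.33, 0.32 and 0.26.

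ER stress elements contain the CCAAT box. CCAAT or its complement was in 24 of 32 members with a window (75.0%) and in 9747 of 27305 windows (35.7%). Of the 24, 18 were lower and 1 higher. The stretches of HSPA5 and SEL1L, the ER chaperone and the member with the largest fall, are printed with each match in capitals.
HSPA5: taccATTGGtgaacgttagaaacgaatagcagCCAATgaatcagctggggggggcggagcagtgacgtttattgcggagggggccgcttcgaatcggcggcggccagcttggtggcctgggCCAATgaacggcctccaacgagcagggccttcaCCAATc
SEL1L: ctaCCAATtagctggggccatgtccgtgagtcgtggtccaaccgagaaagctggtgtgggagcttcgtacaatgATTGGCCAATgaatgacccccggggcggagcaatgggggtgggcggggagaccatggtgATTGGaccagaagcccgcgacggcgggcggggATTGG
HSPA5 (chr9:125241404-125241563, minus strand, 220 to 61 bases before the start) and SEL1L (chr14:81533894-81534063, minus strand, 210 to 41 bases before the start) both carry several, on both strands.

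**Figure D3:**
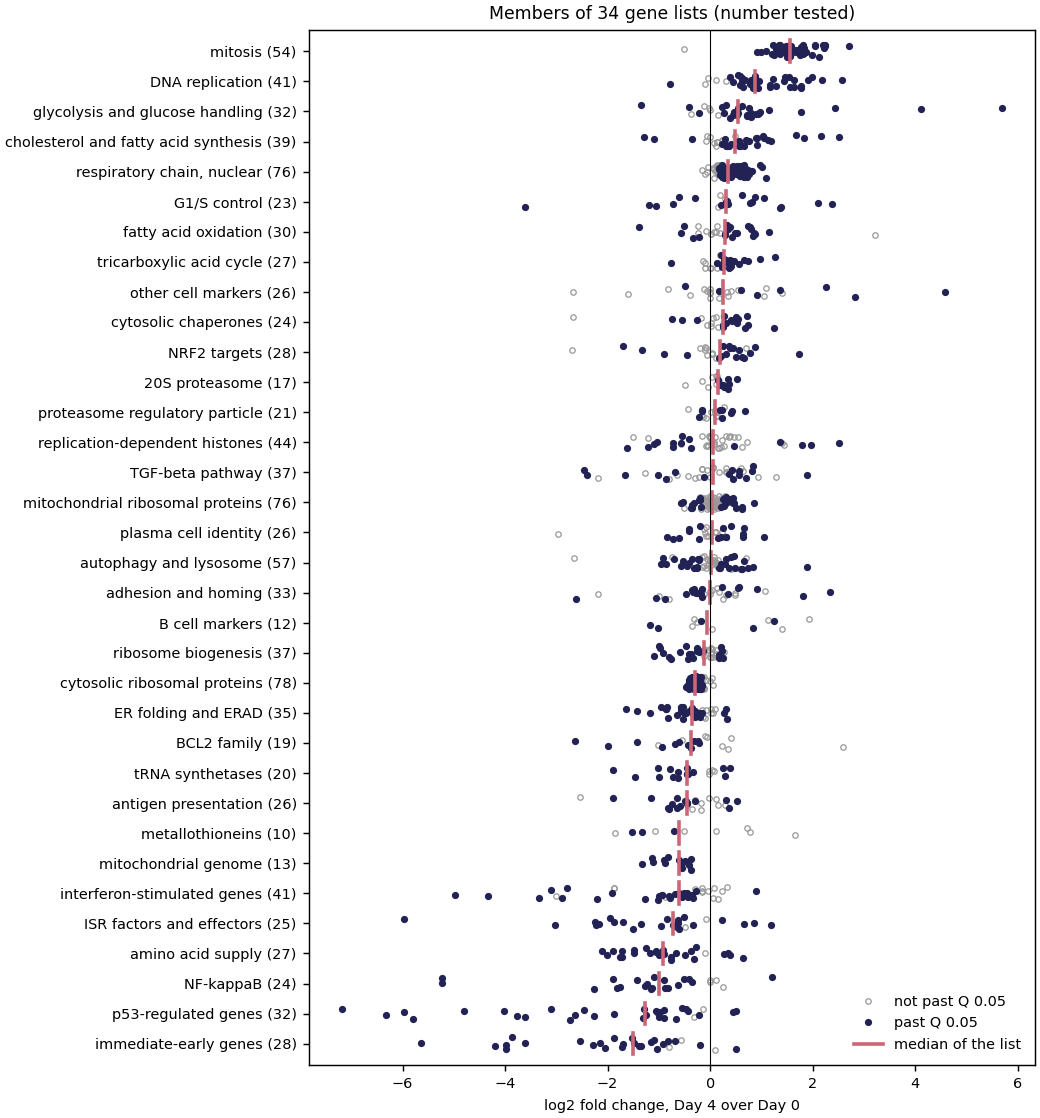
Log2 fold change of day 4 over day 0 for every tested member of the 34 gene lists (one point per gene, filled where Q ≤ 0.05), with the median of each list as a bar and lists ordered by it. Mitosis and DNA replication lie furthest to the right (medians 1.56 and 0.87), and immediate-early and p53-regulated genes furthest to the left (-1.50 and -1.27).

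Integrated stress response genes were below their level in untreated cells. Of 25 factors and effectors, 19 were lower and 4 higher, with a median of -0.72, and 18 members had all day 4 libraries below all day 0 libraries, as did 14.6% of all transcripts. ATF4, the central transcription factor, was at 909.6, 834, 900.4, 845 and 789.8 CPM on day 0 and 546, 501, 566, 477 and 508 CPM on day 4 (log2 fold change -0.72, standard error 0.05, edgeR Q = 1.18e-14). DDIT3, which encodes the pro-apoptotic factor CHOP, fell from 60.8 ± 9.2 to 15.8 ± 3.19 CPM (-1.95), the pseudokinase gene TRIB3 from 135 ± 9.84 to 30.1 ± 2.38 CPM (-2.16), and SESN2, an inhibitor of mTORC1, from 247 ± 18 to 67.6 ± 8.12 CPM (-1.87). ATF3 and PPP1R15A, the phosphatase subunit that reverses eIF2α phosphorylation, fell by 3.02 and 2.24 on the log2 scale. EIF2AK4, which encodes the amino acid sensor kinase GCN2, fell from 255 ± 9.6 to 165 ± 12.3 CPM (log2 fold change -0.63, standard error 0.06, edgeR Q = 2.56e-12). GDF15, a secreted stress cytokine, went from 155 to 2 counts over the 5 libraries of each day, a ratio of 84.1 with a 95% exact counting interval of 22.9 to 701.

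The 4 higher members were VLDLR, DDIT4, KLHL24, of a ubiquitin ligase, and EIF2AK1, the heme-regulated kinase of eIF2α (chosen after its values were seen). VLDLR, a lipoprotein receptor, rose from 2.91 ± 0.745 to 6.62 ± 0.651 CPM (log2 fold change 1.19, standard error 0.23, edgeR Q = 4.48e-05). DDIT4, an inhibitor of mTORC1, was at 203, 179.8, 192, 213 and 193 CPM on day 0 and 287, 190.4, 457, 389.9 and 439.8 CPM on day 4 (log2 fold change 0.85, standard error 0.15, edgeR Q = 1.46e-05). Its day 4 libraries were widely spread and overlapped with day 0. The C/EBP–ATF response element, searched as TGATGNAAN on either strand, was in 4 of 22 members with a window (18.2%) and in 1002 of 27305 windows (3.67%). Of the 4, 3 were lower and none higher. It is shown for ATF3, the target with the largest fall among them, and for CHAC1, which is taken up again with days 2 and 6.
ATF3: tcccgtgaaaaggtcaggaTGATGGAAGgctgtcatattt
CHAC1: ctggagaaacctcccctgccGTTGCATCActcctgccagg
The ATF3 stretch (chr1:212565197-212565236, plus strand) covers 210 to 171 bases before the start and that of CHAC1 (chr15:40953241-40953280, plus strand) 230 to 191.

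Amino acid supply followed the same direction. Of 27 genes of amino acid transport and of serine, glycine, proline and asparagine synthesis, 22 were lower and 4 higher (median -0.93). ASNS, asparagine synthetase, was at 619.8, 613, 588, 656 and 630.1 CPM on day 0 and 183, 181, 216, 168 and 189.8 CPM on day 4 (log2 fold change -1.73, standard error 0.07, edgeR Q = 5.55e-24), with a gap between the groups. PHGDH, the first enzyme of serine synthesis, fell from 185 ± 24.1 to 49.6 ± 16.4 CPM (-1.89), PSAT1, the next in the pathway, from 293 ± 9.55 to 105 ± 15.3 CPM (-1.48), and the mitochondrial folate enzyme gene ALDH1L2 from 79.1 ± 11.1 to 18.2 ± 1.04 CPM (-2.12). SLC7A5, the leucine transporter LAT1, fell by 1.25 and SLC6A9, a glycine transporter, by 2.01 on the log2 scale. The higher members included SHMT1 and MTHFD1, enzymes of the cytosolic folate cycle, at 0.65 and 0.38, and the glutamine transporter gene SLC38A2 at 0.35.

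Of 20 cytosolic tRNA synthetase genes, 13 were lower and 3 higher (median -0.45). WARS, which charges tryptophan, fell from 347 ± 21.6 to 93.4 ± 12.8 CPM (log2 fold change -1.89, standard error 0.08, edgeR Q = 3.51e-22), SARS (serine) by 1.47 and MARS (methionine) by 1.02 on the log2 scale. The 3 that rose were RARS (arginine), FARSA and FARSB (both for phenylalanine), at 0.38, 0.28 and 0.25.

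Targets of NRF2, the regulator of the antioxidant response, were higher in 14 of 28 and lower in 4 (median 0.19). HMOX1, heme oxygenase, was at 3.66, 4.28, 1.97, 4.61 and 5.39 CPM on day 0 and 13.4, 12.5, 12.5, 14.4 and 12.8 CPM on day 4 (log2 fold change 1.73, standard error 0.22, edgeR Q = 1.42e-08), and every day 4 library was above every day 0 library. The pentose phosphate gene TKT rose by 0.87, TXNRD1, thioredoxin reductase, by 0.24 and GCLM, which helps to make glutathione, by 0.30 on the log2 scale. GCLM missed the threshold without Day 4 replicate 5 (0.22, edgeR Q = 0.054). The classical targets NQO1 and SRXN1 did not pass (-0.07, edgeR Q = 0.794, and -0.20, edgeR Q = 0.155), although SRXN1 passed without Day 0 replicate 3 (-0.28, edgeR Q = 0.0356). SLC7A11, the cystine transporter, which is also an ATF4 target, fell from 182 ± 4.67 to 55.8 ± 10.3 CPM (-1.70), OSGIN1 fell by 1.33 and FTH1, ferritin heavy chain, from 1239 ± 101 to 663 ± 61.6 CPM (-0.90). Of 10 metallothionein and zinc genes, 3 were lower and none higher. MT1X, a metallothionein that binds zinc and copper, fell from 25.7 ± 4.6 to 8.88 ± 1.73 CPM, SLC30A1, a zinc exporter, from 158 ± 12.3 to 63.3 ± 4.17 CPM, and MTF1, the zinc-sensing factor that drives both, from 52.9 ± 6.2 to 32.6 ± 3.19 CPM, with log2 fold changes of -1.53, -1.32 and -0.70.

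Immediate-early genes, which respond to growth factors and stress within minutes, had the lowest median of the lists (-1.50). Of 28, 24 were lower, 20 of them by more than 2-fold, and 1 was higher. NR4A1, an orphan nuclear receptor, was at 276, 262, 255, 259.7 and 247 CPM on day 0 and 13.9, 15.4, 14.5, 13.9 and 12.9 CPM on day 4 (log2 fold change -4.20, standard error 0.07, edgeR Q = 1.23e-36). The lowest day 0 library was more than 15-fold above the highest day 4 library. FOS, the partner of JUN in AP-1, fell from 52.3 ± 4.08 to 10.7 ± 5.26 CPM (log2 fold change -2.29, standard error 0.25, edgeR Q = 5.35e-10), JUN from 47.2 ± 4.54 to 21.1 ± 2.74 CPM (-1.16), EGR1, a zinc-finger factor, from 19.1 ± 2.91 to 5.9 ± 1.43 CPM (-1.69) and FOSL1 from 56.1 ± 8.08 to 3.53 ± 1.01 CPM (-3.98). The member that rose was BTG2, an antiproliferative gene that is in the p53 list as well (from 406 ± 47.8 to 575 ± 45.1 CPM, 0.50).

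Genes regulated by p53, the tumour suppressor that halts the cycle after DNA damage, were lower in 28 of 32 and higher in 2 (median -1.27), with 20 past 2-fold. MDM2, CDKN1A, PHLDA3 and RRAD, described above, belong here. PLK2, a stress-induced kinase, had 45 counts over the 5 day 0 libraries and none on day 4, which made it at least 16.3-fold lower against a floor of 3 counts over the day 4 libraries. DDB2, a damage recognition gene, was at 0.45 (edgeR Q = 0.0153) in its protein-coding entry, but fell by 1.43 on the log2 scale when all transcript classes of the gene were summed, and missed the threshold without Day 0 replicate 2 (0.37, edgeR Q = 0.056) or Day 4 replicate 3 (0.36, edgeR Q = 0.0743). Several members are also targets of ATF4 or of growth signals (GDF15, SESN2, BTG2), and the list does not separate these routes.

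The BCL2 family, which decides on release of cytochrome c from mitochondria, was lower in 11 of 19 and higher in none (median -0.37). Without scaling factors 5 were lower and 2 higher. Pro-apoptotic BBC3, which encodes PUMA and is a target of p53, fell most, from 137 ± 8.2 to 22 ± 3.04 CPM (log2 fold change -2.64, standard error 0.09, edgeR Q = 1.11e-24). PMAIP1 (NOXA) fell by 1.43 and BCL2L11 (BIM) by 0.69 on the log2 scale. Among pro-survival members, MCL1, on which myeloma cells depend, was at 1120.5, 1179.8, 1230.3, 1245 and 1225 CPM on day 0 and 592, 611, 666, 602 and 652 CPM on day 4 (log2 fold change -0.94, standard error 0.05, edgeR Q = 5.93e-20). The lowest day 0 library was above the highest day 4 library. BCL2 fell from 568 ± 11.8 to 374 ± 27.8 CPM (-0.60), and BCL2L1, which encodes BCL-xL, was at -0.23 (edgeR Q = 0.00414) with overlap between days and missed the threshold without scaling factors (-0.11, edgeR Q = 0.142).

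NF-κB components and targets were lower in 19 of 24 and higher in 1 (median -1.01). NFKBIA, the inhibitor IκBα and itself a prompt target, was at 163, 152, 154, 148 and 145 CPM on day 0 and 30.6, 33.7, 33.3, 31.4 and 29 CPM on day 4 (log2 fold change -2.27, standard error 0.07, edgeR Q = 2.51e-26). TNFAIP3, the inhibitory enzyme A20, fell from 118 ± 5.18 to 50.4 ± 2.27 CPM (-1.23) and NFKB2, the subunit of the non-canonical branch, from 286 ± 14.1 to 153 ± 10.6 CPM (-0.91). CCL4, a chemokine next to CCL3, went from 91 to 2 counts, a ratio of 49.4 with a 95% exact counting interval of 13.3 to 414. The single member that rose was LTB, lymphotoxin beta (from 14.4 ± 3.18 to 33.5 ± 5.29 CPM, 1.20).

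Interferon-stimulated genes were lower in 25 of 41 and higher in 1 (median -0.62). MX1, an antiviral GTPase, was at 48.9, 47.6, 52.9, 54.1 and 52.7 CPM on day 0 and 6.37, 5.83, 5.6, 9.35 and 7.25 CPM on day 4 (log2 fold change -2.90, standard error 0.14, edgeR Q = 7.26e-21). ISG15, a ubiquitin-like modifier, fell by 1.28 and IFIT1 by 1.91 on the log2 scale. IFI44L fell from 3.55 to 0.158 CPM. BST2, which tethers budding virus to the cell surface, went against the list, from 174 ± 11.7 to 320.4 ± 34.1 CPM (log2 fold change 0.88, standard error 0.06, edgeR Q = 4.33e-16). In antigen presentation, 13 of 26 were lower and 3 higher. The class II genes CD74, HLA-DRA and HLA-DQA1 fell by 0.45, 0.83 and 1.89 on the log2 scale, whereas B2M did not pass (0.12, edgeR Q = 0.265) and TAPBP, which loads peptides, rose by 0.31.

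**Figure D4:**
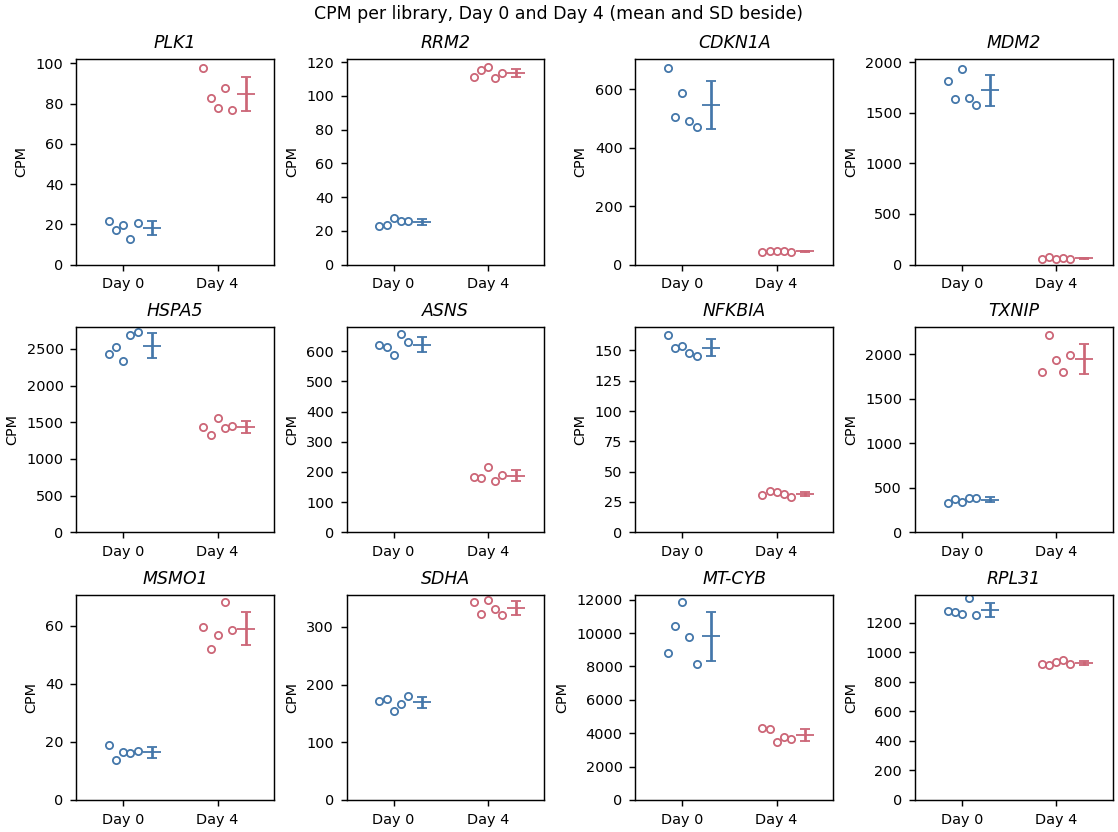
CPM (linear axes from 0) of 12 genes described in the text in each of the 5 day 0 and 5 day 4 libraries (circles), with mean and SD beside them. PLK1, RRM2, TXNIP, MSMO1 and SDHA were higher on day 4 in all libraries, and CDKN1A, MDM2, HSPA5, ASNS, NFKBIA, MT-CYB and RPL31 lower.

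Glycolysis and glucose handling rose, with 24 of 32 genes higher and 3 lower (median 0.54). TXNIP (chromosome 1, 145992435 to 145996579), which is induced by glucose through MondoA and limits glucose uptake, was at 327, 376, 338, 385 and 387 CPM on day 0 and 1800.3, 2215, 1931, 1798 and 1996 CPM on day 4 (log2 fold change 2.43, standard error 0.09, edgeR Q = 9.19e-24). Its paralogue ARRDC4, the other well-known MondoA target, went the other way, from 10.7 ± 1.05 to 4.16 ± 0.81 CPM (log2 fold change -1.36, standard error 0.18, edgeR Q = 3.73e-08). LDHA, lactate dehydrogenase, rose from 672 ± 39.4 to 1296 ± 71.4 CPM (log2 fold change 0.95, standard error 0.06, edgeR Q = 6.02e-18), HK2, hexokinase, from 140.4 ± 8.86 to 205 ± 12 CPM (0.54), and SLC2A1, the glucose transporter GLUT1, from 50.4 ± 9.96 to 77.1 ± 7.0 CPM (0.61). SLC2A4, the insulin-responsive transporter GLUT4, had no count on day 0 and 31 on day 4, at least 9.52-fold higher against a floor of 3 counts over the 5 day 0 libraries, and PDK4 had none and 10, at least 3.07-fold higher. The groups overlapped in both. SLC2A4 missed the threshold with all transcript classes of the gene summed (0.62, edgeR Q = 0.244), and PDK4 missed it without Day 4 replicate 4 (3.48, edgeR Q = 0.058). The lactate exporter gene SLC16A1 and PFKFB3, which sets the rate of phosphofructokinase, were the other members that fell (-0.22 and -0.40), and SLC16A1 missed the threshold without scaling factors (-0.10, edgeR Q = 0.152).

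Of 30 genes of fatty acid oxidation, 15 were higher and 5 lower (median 0.28). ACAD9, which assembles complex I, had the largest rise of the members that passed (1.15). ACADVL, the dehydrogenase for very long chains, rose from 117 ± 8.95 to 215 ± 7.53 CPM (log2 fold change 0.88, standard error 0.05, edgeR Q = 5.59e-17), HADH by 0.86 and CPT1A, which admits fatty acids to mitochondria, by 0.43 on the log2 scale, whereas ACADM did not pass (0.01, edgeR Q = 1.0). ACAD11 and ACSL1 fell by 1.38 and 0.57. In the tricarboxylic acid cycle, 18 of 27 were higher and 1 lower (median 0.26). PC, pyruvate carboxylase, rose by 1.27 and IDH2 by 0.74, and the cytosolic isoform IDH1 fell by 0.77.

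Cholesterol and fatty acid synthesis, under control of the SREBP factors, was higher in 26 of 39 genes and lower in 3 (median 0.49). MSMO1, a sterol oxidase of cholesterol synthesis, was at 19, 13.8, 16.6, 16 and 16.9 CPM on day 0 and 59.6, 52.2, 57, 68.1 and 58.5 CPM on day 4 (log2 fold change 1.84, standard error 0.09, edgeR Q = 3.55e-20). The groups were more than 2-fold apart at their nearest libraries. SQLE, squalene epoxidase, rose from 45.9 ± 2.79 to 86.3 ± 5.96 CPM (0.91) and FASN, fatty acid synthase, from 369.8 ± 17.9 to 608 ± 62.8 CPM (0.72). HMGCS1, an SREBP target, did not pass (-0.00, edgeR Q = 1.0). The sterol exporters ABCA1 and ABCG1, targets of the liver X receptor, fell by 1.28 and 1.09. A sterol element, searched as TCACNCCAC, was in 1 of 30 members with a window (3.33%) and in 313 of 27305 windows (1.15%).

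The respiratory chain moved apart by genome. Of 76 nuclear genes, 57 were higher and none lower (median 0.35). SDHA, the flavoprotein of complex II, was at 171, 174, 154, 166 and 180.0 CPM on day 0 and 343, 323, 347, 331 and 321 CPM on day 4 (log2 fold change 0.98, standard error 0.05, edgeR Q = 7.04e-19). NDUFC1 (complex I) and UQCRQ (complex III) rose by 1.09 and 1.00, and NDUFB8 by 0.24 on the log2 scale. All 13 protein-coding genes of the mitochondrial genome were lower (median -0.62), with 11 of them not overlapping. MT-CYB, cytochrome b of complex III, was at 8809.8, 10420.0, 11892, 9739.9 and 8130.4 CPM on day 0 and 4320.3, 4270.3, 3453, 3798 and 3624 CPM on day 4 (log2 fold change -1.33, standard error 0.11, edgeR Q = 6.99e-14). MT-ND1 and MT-ND2 of complex I fell by 1.14 and 1.12, and MT-CO1 of complex IV by 0.37 with overlap between days. Summed, these transcripts ran from 83131 to 123618 CPM on day 0 and from 58174 to 69596 CPM on day 4. The counts of both lists kept this direction without scaling factors (69 of 76 nuclear genes higher and 13 of 13 mitochondrial ones lower).

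Of 76 mitochondrial ribosomal protein genes, 16 were higher and 10 lower, against 19.0% and 20.1% of all transcripts, and 50 did not pass (median 0.04). These counts are not a result about the list. Without scaling factors 29 were higher and 4 lower. MRPS27 rose from 61.5 ± 5.25 to 111 ± 3.4 CPM (log2 fold change 0.85, standard error 0.06, edgeR Q = 8.29e-16) and MRPS17 fell from 32 ± 2.21 to 21.5 ± 2.1 CPM (log2 fold change -0.58, standard error 0.10, edgeR Q = 1.29e-05). Cytosolic ribosomal protein genes were lower in 65 of 78 and higher in none, by a small amount (median -0.29, range -0.47 to 0.05). Without scaling factors 51 were lower and 2 higher. RPL31 fell most, with 1279, 1272, 1257, 1368 and 1253 CPM on day 0 and 919, 914, 933, 947 and 921 CPM on day 4 (log2 fold change -0.47, standard error 0.06, edgeR Q = 2.28e-08), followed by RPL37 and RPL26 (-0.45 and -0.43).

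Ribosome biogenesis genes were lower in 17 of 37 and higher in 5 (median -0.11), and without scaling factors in 13 and 11. RRP12, which exports both ribosomal subunits, fell from 164 ± 11.9 to 77.2 ± 3.3 CPM (log2 fold change -1.09, standard error 0.06, edgeR Q = 6.66e-19), UTP15 of the small-subunit processome by 1.00 and RRP9, a U3 snoRNA partner, by 0.98 on the log2 scale. MYC, which drives the whole programme, was at 914, 1032, 868, 984 and 1107 CPM on day 0 and 1136, 946, 1011, 1005 and 1021 CPM on day 4 (log2 fold change 0.06, standard error 0.06, edgeR Q = 0.44), and the groups overlapped. NCL, nucleolin, did not pass (0.01, edgeR Q = 0.966), and BOP1, POLR1B and FBL, fibrillarin, were at 0.24, 0.22 and 0.21. Without scaling factors MYC and NCL passed (0.17, edgeR Q = 0.00748, and 0.12, edgeR Q = 0.0367), and FBL missed the threshold without Day 4 replicate 1 (0.17, edgeR Q = 0.0633) or Day 0 replicate 3 (0.17, edgeR Q = 0.0674).

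Of 57 autophagy and lysosome genes, 15 were higher and 15 lower, against 19.0% and 20.1% of all transcripts, and 27 did not pass (median 0.02). Without scaling factors 23 were higher and 11 lower. SQSTM1, the cargo receptor p62, fell from 731 ± 53.1 to 531 ± 30.7 CPM (-0.46), MAP1LC3B, which marks autophagosomes, from 82.4 ± 9.22 to 45 ± 4.62 CPM (-0.87) and WIPI1 by 0.92 on the log2 scale. The lysosomal hydrolase gene GLA rose by 0.74, and the protease gene CTSD did not pass (-0.12, edgeR Q = 0.121), although it passed without Day 0 replicate 3 (-0.16, edgeR Q = 0.0205). ATG16L1 was higher in its protein-coding entry (1.88) but fell by 0.82 on the log2 scale with all transcript classes summed.

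In the TGF-β pathway, 9 of 37 were higher and 7 lower. The ligand genes TGFB1 and BMP7 rose by 0.55 and 1.88, and INHBE, an activin subunit, fell from 24.1 ± 2.45 to 4.56 ± 0.797 CPM (-2.40). SKIL, a repressor of SMADs, fell by 1.66 on the log2 scale, and the inhibitor gene SMAD7 did not pass (0.30, edgeR Q = 0.171). Among adhesion and homing genes, 7 of 33 were higher and 12 lower, and 12 and 5 without scaling factors. The laminin receptor gene ITGA6 had the largest rise (2.34) and reached 1.64 CPM. CXCR3, a chemokine receptor, rose from 25.5 ± 2.31 to 90.1 ± 12.9 CPM (log2 fold change 1.82, standard error 0.09, edgeR Q = 5.96e-20) and the integrin gene ITGB5 by 0.92, whereas CD44 fell by 0.87 and ITGAX by 2.62 on the log2 scale. ITGB7, an integrin of myeloma cells with a MAF translocation, did not pass at 6886 ± 511 and 7041 ± 447 CPM (0.03, edgeR Q = 0.732). CXCR4, the homing receptor for marrow, was at -0.32 (edgeR Q = 0.00751) with overlap, and missed the threshold without scaling factors (-0.21, edgeR Q = 0.0867) or without Day 0 replicate 1 (-0.24, edgeR Q = 0.0637).

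Plasma cell genes went both ways, with 10 of 26 higher and 7 lower (median 0.03). CD79A, a subunit of the B cell receptor, was the one past 2-fold (1.05, from 1.28 ± 0.413 to 2.7 ± 0.651 CPM). MZB1, which assists antibody secretion, rose from 417 ± 17.5 to 652 ± 58.8 CPM (0.64) and CD38 from 190.3 ± 7.61 to 226 ± 15 CPM (0.25). IRF4, the factor on which myeloma cells depend, fell from 462 ± 15.2 to 347 ± 36 CPM (-0.41), ELL2, an elongation factor for secretory immunoglobulin mRNA, by 0.84 and SSR4, of the ER translocon, by 0.73 on the log2 scale. SDC1 and TNFRSF17, which encodes BCMA, did not pass (-0.12, edgeR Q = 0.094, and 0.10, edgeR Q = 0.417), although SDC1 passed without Day 4 replicate 1 (-0.15, edgeR Q = 0.0333) or Day 0 replicate 3 (-0.16, edgeR Q = 0.0211). Of 12 B cell markers, CR2 and PAX5 were higher (1.25 and 0.84) and BCL6, FCER2 and BLK lower (-1.17, -1.02 and -0.17). BLK overlapped between days and missed the threshold without scaling factors (-0.06, edgeR Q = 0.536), with the replicate block (-0.17, edgeR Q = 0.0579) and without any of 9 of the 10 libraries in turn. Of the markers of other cells, 7 were higher and 1 lower. The alpha globin genes HBA1 and HBA2 rose to 3.12 and 2.13 CPM while HBB had no count, these 2 are near-identical copies, and S100A9 had no count on day 0 and 14 on day 4.

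The count table also lists other transcript classes of each gene. Over all 65717 entries with a count, 3824 (5.82%) passed Q ≤ 0.05 and the fold cutoff, 1125 (1.71%) higher and 2699 (4.11%) lower. This was a separate fit, adjusted over all entries. In it, 7.71% of the 17999 protein-coding entries passed, 649 higher and 738 lower. Retained-intron entries, in which an intron is kept, passed in 989 of 8883 (11.1%), with 870 (9.79%) lower and 119 (1.34%) higher. Entries subject to nonsense-mediated decay passed in 305 of 6322 (4.82%), with 230 (3.64%) lower and 75 (1.19%) higher. Processed transcripts without a reading frame passed in 485 of 10124 (4.79%), with 383 (3.78%) lower and 102 (1.01%) higher. Of 5604 long intergenic RNAs 172 (3.07%) passed, 113 (2.02%) lower and 59 (1.05%) higher, and of 4660 antisense entries 213 (4.57%), 162 (3.48%) lower and 51 (1.09%) higher. Entries of a gene share exons with its coding entry, so their counts are estimates of how reads divide between transcripts.

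Days 2, 4 and 6 are equally spaced, so a transcript that moves steadily on a log scale would lie on day 4 at the mean of its log2 levels on days 2 and 6. A single test in the same model asked which transcripts lay off it. At Q ≤ 0.05, 1007 transcripts (5.59%) lay off it, 467 (2.59%) above and 540 (3.0%) below, and 20 and 10 of these by more than 1 on the log2 scale. This test does not use day 0. None of the 54 mitotic genes passed this test. PLK1, for one, was at 126, 84.7 and 61.3 CPM on days 2, 4 and 6.

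In the integrated stress response list 6 of 25 were above and 2 below. CHAC1, a glutathione-degrading enzyme and ATF4 target, was at 0.478 ± 0.307 CPM on day 2, 9.53 ± 0.571 CPM on day 4 and 22.2 ± 2.13 CPM on day 6, a difference of 1.53 (standard error 0.18, edgeR Q = 5.32e-07) on the log2 scale. SESN2 lay above by 0.60 (standard error 0.10, edgeR Q = 6.27e-05), SLC7A11 by 0.54 (standard error 0.08, edgeR Q = 1.80e-05) and ATF4 by 0.27 (standard error 0.05, edgeR Q = 1.32e-04). Immediate-early genes were above in 7 of 28 and below in none. FOS was at 3.07 ± 1.99, 10.7 ± 5.26 and 4.47 ± 2.61 CPM on the 3 days (1.56, standard error 0.26, edgeR Q = 9.12e-05), with day 4 the highest of the 3, and below 52.3 CPM on day 0. FOSB lay above by 1.34 (standard error 0.32, edgeR Q = 0.00759), EGR1 by 0.92 (standard error 0.25, edgeR Q = 0.0173) and NR4A1 by 0.63 (standard error 0.08, edgeR Q = 1.08e-06). In the p53 list 7 of 32 were above and 1 below, among them BBC3 at 0.62 (standard error 0.10, edgeR Q = 4.40e-05), whereas MDM2 was level at 58.4, 61.3 and 65.3 CPM. CYP1A1 rose between days 2 and 4, at 8.58 ± 0.654, 66.6 ± 3.16 and 59.3 ± 27.3 CPM (1.56, standard error 0.32, edgeR Q = 0.00151), and APOL3, an apolipoprotein L gene, lay above by 1.06 (standard error 0.27, edgeR Q = 0.0102). GAGE12G was above as well, but belongs to a family of near-identical copies.

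Of 39 genes of cholesterol and fatty acid synthesis, 21 were below and 1 above. MSMO1 was at 124 ± 7.64, 59.1 ± 5.79 and 57.1 ± 5.01 CPM (-0.51, standard error 0.07, edgeR Q = 1.81e-06). SQLE lay below, at -0.40 (standard error 0.06, edgeR Q = 8.26e-06) and HMGCS1 at -0.44 (standard error 0.06, edgeR Q = 4.76e-06). HMGCS1 was at 173 ± 6.49, 75 ± 6.19 and 59.7 ± 3.82 CPM, beside 75.2 ± 4.74 CPM on day 0. Of 37 genes of ribosome biogenesis, 17 were below and 1 above, and 11 were below when Day 6 replicate 1, Day 4 replicate 2 or Day 4 replicate 5 was left out. RRP12 was at 104 ± 4.11, 77.2 ± 3.3 and 84.2 ± 6.56 CPM (-0.28, standard error 0.05, edgeR Q = 5.77e-04), lowest on day 4 of the 3. RRP9 lay below, at -0.35 (standard error 0.07, edgeR Q = 0.00174) and UTP15 at -0.32 (standard error 0.07, edgeR Q = 0.0028). Of 24 cytosolic chaperones 9 were below and none above, among them CHORDC1 (-0.39, standard error 0.08, edgeR Q = 0.00137) and DNAJB1 (-0.27, standard error 0.06, edgeR Q = 0.00255). The largest single differences below were those of PRDM15, ATG9B, PLS1 and HES6, at -1.03, -0.94, -0.85 and -0.76, and of the read-through entries RPS10-NUDT3 and PPAN-P2RY11, which share sequence with their parent genes.

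**Figure D5:**
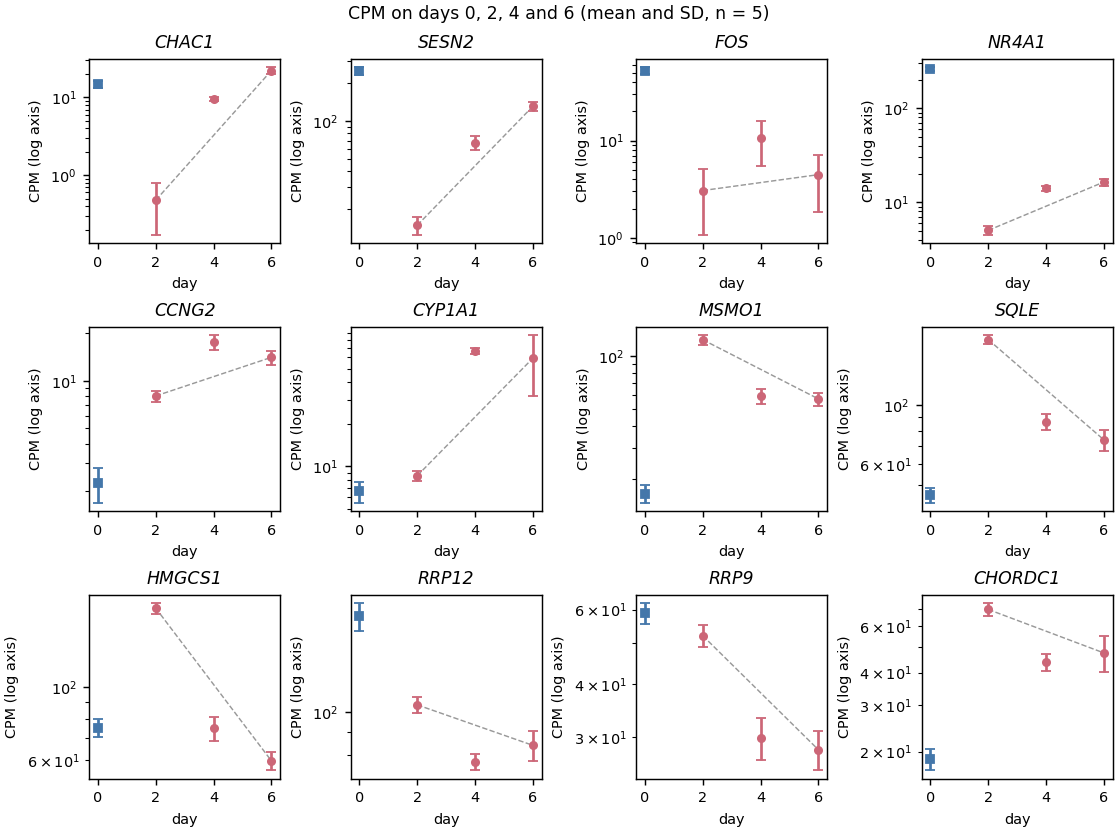
Mean and SD (n = 5) of CPM on a log axis on day 0 (square) and days 2, 4 and 6 (circles) for 12 genes that lay off the mean of days 2 and 6, whose log-scale line is dashed. CHAC1, SESN2, FOS, NR4A1, CCNG2 and CYP1A1 lie above the line on day 4, and MSMO1, SQLE, HMGCS1, RRP12, RRP9 and CHORDC1 below it.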

How the data were processed

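RNA-seq of 35 libraries of RPMI-8226 cells covered 7 days with 5 libraries each. The authors deposited whole-number estimated counts per gene and transcript class, made with kallisto 0.44.0 on GENCODE transcripts of GRCh38.p12 with GC bias adjustment, and summed to genes in R 3.5.0 with length adjustment before DESeq2 1.25.8, per the submitters' processing notes and the methods. Estimated counts divide reads between transcripts that share sequence.

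Here edgeR 4.0.16 (TMM factors, quasi-likelihood test) was fitted to all 35 libraries over the 17999 of 19665 protein-coding entries with a count, with day as a factor. Q is the Benjamini–Hochberg adjusted p over all entries tested. Standard errors are the log2 fold change over the square root of F. Depth was 6641766 to 9400769 counts in the 10 libraries compared, and intervals cover counting error only. On simulated counts for this comparison (16593 genes), 97 of 100 4-fold changes passed Q and the fold cutoff, as did 2 of 16393 unchanged genes, and 76 of 100 1.5-fold changes passed Q alone, as did 8 unchanged genes. The simulated levels were those of day 0 on all days, with changes only in genes above 2 CPM. Recovery at lower levels and the difference in scaling factors between days were therefore not covered. The counts were drawn from the spread that edgeR fitted to these data, so departures from its model were not covered either. Far fewer genes changed in the simulation than the 7043 that passed Q in the data.

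Named genes were the 10 largest rises and falls, core genes and the 3 largest changes each way of 34 lists, and the 6 largest each way off the mean of days 2 and 6. Members and lists were chosen with earlier results of these data known, and core genes include ones the study names. Some named genes are not reported here. Positions (GENCODE 44) matched 93.0% of symbols, and promoter windows came from RefSeq. Alternatives were RLE and no scaling, a count filter, DESeq2 1.42.0, a replicate block, the 10 libraries alone, other fold cutoffs, leaving out each library, and summed transcript classes.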

Additional observations from a re-analysis of the deposited data

Results flagged for a closer look

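In each group of 5 libraries, the level of each gene named in the report and each library measure was tested with Dixon's ratio for a library far from the other 4 (critical value 0.71). Of 446 groups, 23 passed, and chance gives about 1 in 20. Day 0 replicate 3 stood apart most often, for 7 genes.

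In day 0 replicate 1, CHAC1 was at 17.4 CPM beside 13.6 to 14.6 CPM in the other 4. JUN was at 55.3 CPM beside 44.8 to 45.4 CPM in the other 4. In day 0 replicate 2, HADH was at 41.7 CPM beside 32.3 to 34 CPM in the other 4. In day 0 replicate 3, ANGPTL4 was at 2.14 CPM beside 0 to 0.563 CPM in the other 4. CTSD was at 205 CPM beside 243 to 249.9 CPM in the other 4. DNAJB1 was at 94.2 CPM beside 104 to 108 CPM in the other 4. HSPB1 was at 53.8 CPM beside 68.7 to 71.4 CPM in the other 4. ITGB7 was at 6001 CPM beside 7003 to 7326 CPM in the other 4. PSMB5 was at 44.5 CPM beside 53.9 to 56.7 CPM in the other 4. SDC1 was at 269.6 CPM beside 309.9 to 319.6 CPM in the other 4. In day 0 replicate 4, HBA2 was at 1.6 CPM while the other 4 had no count. RPL31 was at 1368 CPM beside 1253 to 1279 CPM in the other 4. In day 0 replicate 5, PSMB6 was at 56.4 CPM beside 45 to 47.4 CPM in the other 4.

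In day 4 replicate 1, HSPA4L was at 3.03 CPM beside 5.75 to 6.02 CPM in the other 4. ORC6 was at 15.3 CPM beside 10.2 to 10.6 CPM in the other 4. In day 4 replicate 2, BTG2 was at 494 CPM beside 589.7 to 599.8 CPM in the other 4. CD38 was at 253 CPM beside 217 to 222 CPM in the other 4. HSPA1A was at 4.1 CPM beside 9.98 to 11.3 CPM in the other 4. PHLDA3 was at 0.788 CPM while the other 4 had no count. In day 4 replicate 3, MKI67 was at 118 CPM beside 109 to 111 CPM in the other 4. PAX5 was at 2.01 CPM beside 3.11 to 3.49 CPM in the other 4. RPL26 was at 887 CPM beside 835 to 848 CPM in the other 4. In day 4 replicate 5, MRPS27 was at 105 CPM beside 111 to 113 CPM in the other 4.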

How the results depend on the processing

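A 4-fold cutoff left 566 transcripts, 189 higher and 377 lower, and with no fold cutoff 7043, 3421 higher and 3622 lower. The other alternatives gave 1310 (filterByExpr filter) to 1768 (all transcript classes of a gene summed, chosen after seeing the data), DESeq2 1561, and 1578 to 1704 when each library was left out in turn (703 to 757 higher, 860 to 951 lower). Off the mean of days 2 and 6, these gave 1451 with summed classes, 1305 with DESeq2 and 739 to 1080 with a library left out. DDB2 and ATG16L1 reversed with summed classes, to -1.43 and -0.82 on the log2 scale, and the cause was not tested. Without scaling factors, 12 of 262 named genes lost and 6 gained the threshold. PLK2, at 0 on day 4, missed it with DESeq2 (Q = 0.427).

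The replicate number as a block gave 1586 transcripts, 712 higher and 874 lower, and 1077 off the mean. Same-numbered libraries correlated at -0.031 to 0.072 in their deviations, and replicate 1 alone correlated best with its own number. Correlations this low cannot show whether libraries of the same number came from the same culture. The cultures came from a single line with no untreated day 4 arm, and at 5373835 to 7457004 protein-coding counts per library, genes with a few counts had wide intervals.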

Other observations

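Among long intergenic RNAs, AC079466.1 rose from 456 ± 48 to 2392 ± 301 CPM (SD, n = 5; log2 fold change 2.39, edgeR Q = 4.69e-18). RP11-54O7.1 rose from 0.309 ± 0.332 to 2.16 ± 0.564 CPM (SD, n = 5; log2 fold change 2.84, edgeR Q = 1.78e-04) and AC006129.1 fell from 4.29 ± 1.56 to 0.216 ± 0.21 CPM (SD, n = 5; log2 fold change -4.18, edgeR Q = 1.69e-05). The antisense entry RP11-611O2.5 fell from 85.5 ± 9.69 to 3.33 ± 0.938 CPM (SD, n = 5; log2 fold change -4.69, edgeR Q = 3.80e-15).

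Immunoglobulin constant genes are a class of their own in the table. RPMI-8226 secretes lambda light chain, and IGLC2 and IGLC3, whose sequences are near-identical, fell from 23501 ± 1286 to 14979 ± 1217 CPM (SD, n = 5; log2 fold change -0.65, edgeR Q = 2.16e-09) and from 3798 ± 173 to 2474 ± 187 CPM (SD, n = 5; log2 fold change -0.62, edgeR Q = 4.08e-09). IGKC, the kappa constant gene, fell from 218 ± 10.7 to 182 ± 12 CPM (SD, n = 5; log2 fold change -0.26, edgeR Q = 0.00104). The heavy chain genes differed in direction, with IGHG4 at 0.78 (edgeR Q = 4.26e-11), IGHG2 at 0.45 (edgeR Q = 0.00185) and IGHA2 at -1.74 (edgeR Q = 1.67e-05).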
